A study of Homo sapiens with 16 samples.

Results

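The replication-dependent histone genes are the genes that supply new histones while DNA is copied. They were taken here as every row of the count table whose symbol begins with HIST1H, HIST2H, HIST3H or HIST4H, which gave 73 of the 26229 listed genes. By name 6 of them belong to the class of linker histone H1, 18 to H2A, 20 to H2B, 14 to H3 and 15 to H4. HIST1H2APS1, HIST2H2BA and HIST2H2BC are pseudogenes without an annotated coding sequence, and the other 70 have one. In the annotation 56 HIST1 genes lie on chromosome 6, 13 HIST2 genes and 3 HIST3 genes on chromosome 1, and the 1 HIST4 gene on chromosome 12.

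RNA was sequenced from 2 human cell lines, A431, an epidermoid carcinoma line, and HaCAT, an immortalised keratinocyte line, both grown in DMEM with 10% FCS. Each line gave 1 library with control siRNA (siCTRL), 3 with YAP1 siRNA (siYAP), 1 with an empty vector and 3 with YAP5SA, a constitutively active YAP1 mutant that the labels call YAP1 S5A. By their labels the siRNA libraries carry no vector and the vector libraries no siRNA. All 16 records hold the same treatment text, which times only siRNA transfections, given 2 times with 24 hours between them and followed by RNA collection after 48 hours, so that when the vector was given is not stated. What differs between the siRNA and vector libraries besides YAP therefore cannot be told apart from YAP where YAP5SA is compared with siYAP. The paper describes the 3 replicates as biological.

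Replication-dependent histone mRNAs are made in S phase, when the cell needs histones to wrap its new DNA. Most of them end in a short stem-loop in place of the poly(A) tail of other mRNAs. The stem-loop binding protein SLBP holds that hairpin through processing, export and translation, and the mRNAs are degraded when DNA synthesis stops. Nucleosomes hold H2A, H2B, H3 and H4 around their core, and H1 binds the DNA between them. YAP is a transcriptional coactivator that drives proliferation in the epidermis.

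The hairpin was read from the GENCODE 29 transcripts (GRCh38), in the 3′ untranslated region after the stop codon, and was present in the annotated transcripts of 31 of the 73 members. The sequences below show each of the 5 versions found, with HIST1H2BD and HIST1H3G side by side because the results return to both, and with the 16 bases of the stem-loop in capitals and 5 bases on each side in lower case.
HIST2H2BE: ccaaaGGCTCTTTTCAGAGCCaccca
HIST1H2AG: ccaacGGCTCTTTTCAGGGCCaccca
HIST1H2BD: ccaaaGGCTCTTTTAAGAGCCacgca
HIST1H3G: aaaaaGGCTCTTTTAAGAGCCgccta
HIST1H4E: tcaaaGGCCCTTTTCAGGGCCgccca
HIST2H4A: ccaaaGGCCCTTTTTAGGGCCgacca

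These windows are HIST2H2BE at chr1:149886183-149886208 on the minus strand, HIST1H2AG at chr6:27133510-27133535 and HIST1H2BD at chr6:26158582-26158607 on the plus strand, HIST1H3G at chr6:26270918-26270943 on the minus strand, and HIST1H4E at chr6:26204996-26205021 and HIST2H4A at chr1:149833027-149833052 on the plus strand. Each hairpin has 6 paired bases in the stem and 4 in the loop. The loop was TTTC in 23 members, TTTA in 5 and TTTT in 3. The H2A, H2B and H3 genes carried the stem that begins GGCTC and the 8 H4 genes with a hairpin the stem that begins GGCCC, so HIST1H2BD and HIST1H3G share 1 hairpin although they encode different histones. The TTTA loop was found in 3 H2B genes, HIST1H2BC, HIST1H2BD and HIST1H2BF, and in the H3 genes HIST1H3G and HIST3H3. A member without the hairpin in an annotated transcript may still carry it in a sequence that was not searched.

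Some of these genes also have longer transcripts with a poly(A) tail. Among the tested members 20 had an annotated transcript of at least 150 bases beyond the stop codon with a poly(A) signal in its last 40 bases, and 45 had none. The paper says that mRNA was isolated and the labels that total RNA was prepared, and neither says whether the libraries were made by poly(A) selection. RMRP and RPPH1, which are RNAs without a tail, were at 850.4 to 2766 and at 1524 to 3605 CPM, read counts scaled to the size of the library.

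The promoters differ between the histone classes as well. RefSeq promoters (GRCh38.p14, 250 bases before to 50 after the start) were matched for 60 of the 73 members and searched on both strands for 3 motifs. The octamer ATTTGCAT was in 11 of 16 H2A promoters and 9 of 13 H2B promoters, in 0 of the 6 H1, 12 H3 and 13 H4 promoters, and in 1.83% of the 27305 promoters of all genes. CCAAT was in every matched H1, H2A, H2B and H3 promoter, in 3 of 13 H4 promoters and in 35.4% of all promoters. TATAAA was in 50% of H1, 75% of H2A, 69.2% of H2B, 75% of H3 and 53.8% of H4 promoters, against 12.3% of all. A match describes the letters in the window and not the binding of a factor.

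Each library held 18115624 to 46791673 assigned read pairs. YAP1 itself was at 94.3 CPM in the siCTRL library of A431 and at 5.338, 6.999 and 5.043 CPM in siYAP, and at 254 CPM against 23.2, 21.6 and 21.8 CPM in HaCAT. With YAP5SA it was at 1495, 3245 and 2940 CPM in A431, against 124 CPM in the empty vector library, and at 7549, 22250 and 10070 CPM against 423 CPM in HaCAT, a change that passed the test in HaCAT (log2 fold change 4.97, adjusted p = 0.00208) and had an adjusted p of 0.197 in A431 (4.36). The 10 keratinocyte markers summed to 3500 to 8130 CPM, and markers of other cell types were low, although some differed between siRNA and vector libraries. EGFR, which is amplified in A431, was at 750.0 to 1358 CPM there and at 298 to 557 CPM in HaCAT.

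Of the 73 members, 65 passed the filter of a mean above 10 counts per library, and 14673 genes passed it in all. The 8 that did not were HIST1H1T, HIST1H2AA, HIST1H2APS1, HIST1H2BA, HIST1H4F, HIST1H4G, HIST2H2BA and HIST3H3. HIST1H2APS1 and HIST1H4G had no count in any of the 16 libraries, and the highest count of the other 6 in any library was 9 to 29. Levels below are CPM scaled by TMM. A gene was called at an adjusted p under 0.05 and a mean log2 CPM above 1 in edgeR's quasi-likelihood test, with Benjamini-Hochberg adjustment over all tested genes. The shares of genes called are taken over all 14673 tested genes. These include genes with a mean log2 CPM of 1 or less, which cannot be called. Among the genes that could be called the shares would be higher, and most tested members were above that level. The siCTRL and the empty vector groups have 1 library each, so their spread was taken from the 4 triplicates.

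In 3 cases 2 copies gave the same count in all 16 libraries, and their reads cannot be assigned to 1 gene. These were HIST2H2AA3 and HIST2H2AA4, HIST2H4A and HIST2H4B, and HIST2H3A and HIST2H3C, each set with an identical coding sequence. HIST2H3D, which differs from HIST2H3A at 12 of 411 coding bases, had counts of its own. Values of these members are split evenly between the copies and are counted here as the table lists them.

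Histone mRNA made up 0.0991 to 0.219% of the assigned pairs in the siRNA libraries and 0.353 to 0.698% in the vector libraries. The 73 members summed to 2188 CPM in siCTRL of A431, to 1008, 1538 and 1480 CPM in siYAP, to 5603 CPM with the empty vector and to 3814, 7238 and 6997 CPM with YAP5SA. In HaCAT the sums were 1085 CPM in siCTRL, 995, 1090 and 941 CPM in siYAP, 3933 CPM with the empty vector and 3463, 3854 and 5055 CPM with YAP5SA. All 4 vector libraries of each line thus stood above all 4 siRNA libraries of that line, and the empty vector library lay within the YAP5SA libraries in both. In A431 the siCTRL library stood above all 3 siYAP libraries, and in HaCAT it lay within them. In bulk RNA fewer cells in S phase and less histone RNA per cell cannot be told apart.

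**Figure D1:**
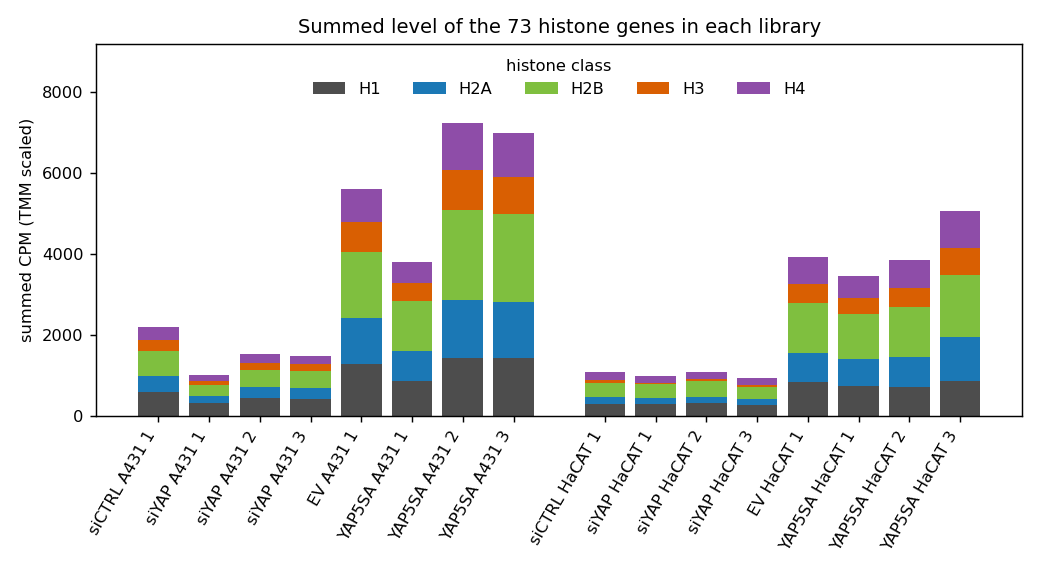
Stacked bars give the summed CPM of the 73 histone genes in each of the 16 libraries, split into H1, H2A, H2B, H3 and H4. The siRNA libraries lie between 941 and 2188 CPM and the vector libraries between 3463 and 7238 CPM.

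The sum was 1342 ± 291 CPM (SD, n = 3) in siYAP and 6016 ± 1910 CPM (SD, n = 3) in YAP5SA of A431, and 1009 ± 75.1 and 4124 ± 830 CPM (SD, n = 3 each) in HaCAT. The mean of YAP5SA was 4.48 times that of siYAP in A431 and 4.09 times in HaCAT. Against its own control it was 1.07 times in A431 and 1.05 times in HaCAT. The empty vector library was at 2.56 times the siCTRL library in A431 and at 3.62 times in HaCAT, 1 library against 1.

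Several linker histones were among the highest single members by CPM. By mean CPM over the 16 libraries the 12 leading members were HIST1H1C (293 CPM), HIST1H1E (149 CPM), HIST1H1B (128 CPM), HIST2H2BE (125 CPM), HIST1H1D (116 CPM), HIST2H2BF (94.5 CPM), HIST1H2BK (89.4 CPM), the copies HIST2H4A and HIST2H4B (86.1 CPM each), HIST1H2BJ (84.3 CPM), HIST1H2BD (84.0 CPM) and HIST1H4C (73.7 CPM). Together they held 39.3 to 61.8% of the summed CPM of a library. H1 coding sequences are longer than those of the core histones. Per kilobase of coding sequence HIST1H1C still led at 457 CPM. It was followed by HIST2H2BE at 327 CPM, the HIST2H4A copies at 276 CPM and HIST1H4C at 236 CPM. HIST1H1E stood at 225.5 CPM, HIST1H1B at 187.5 CPM (rank 13) and HIST1H1D at 173.6 CPM (rank 16). This measure leaves out the length of the transcript beyond the coding sequence. In HIST2H2BE 1729 annotated bases follow the hairpin, so its level per kilobase may be too high.

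Members also differed widely in their range over the libraries. The highest library was 3.46 times the lowest for HIST1H1C, 4.43 times for HIST1H2BK, 4.58 times for HIST1H2BD and 4.74 times for HIST1H1E, the narrowest ranges among the tested members. It was 223 times the lowest for HIST1H2BM, 157 times for HIST1H2BB and 138 times for HIST1H3J. HIST1H1C, HIST1H2BD and HIST1H2BK together made up 33.1% of the sum in siCTRL of HaCAT and 40.8, 39.1 and 40.8% in siYAP, against 14.3% with the empty vector and 12.9, 13.5 and 10.3% with YAP5SA. In A431 they made up 16.9% in siCTRL, 21.1, 17.7 and 17.1% in siYAP, 12.3% with the empty vector and 12.7, 10.8 and 11.2% with YAP5SA. In both lines every siRNA library had the larger share.

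**Figure D2:**
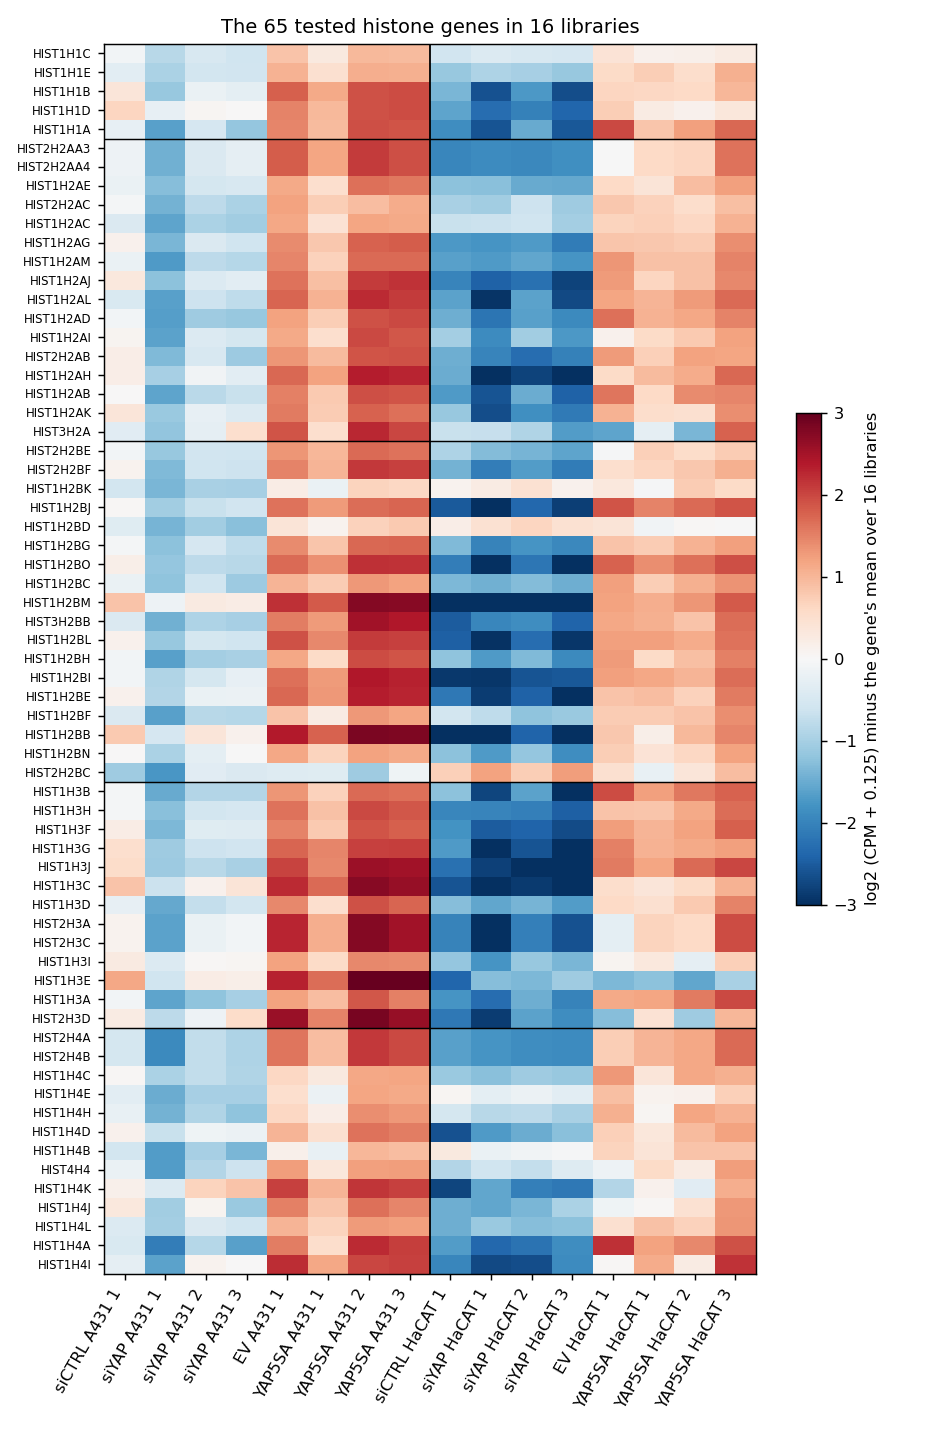
Each row is 1 of the 65 tested histone genes and each column 1 of the 16 libraries, and the colour gives the log2 of CPM, after the prior count was added, minus the mean of that gene over the libraries, limited to 3 in either direction. Most members are low in the siRNA columns and high in the vector columns of both lines, and HIST1H2BD, HIST1H2BK, HIST1H3E and HIST2H2BC do not follow this in HaCAT.

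The comparison of siYAP with siCTRL asks what happened to the histone genes when YAP1 was knocked down. Over both lines 6 members fell and 0 rose, where 777 of the 14673 tested genes were called higher. The 6 were the H3 genes HIST1H3G, HIST1H3J and HIST1H3B, the H2A gene HIST1H2AH, the linker histone HIST1H1D and the H2B gene HIST2H2BE. They were 6 of 65 members, beside a background of 7.68% of all tested genes called lower in that comparison. The number of calls among the members was thus near the share of all genes. The count was 1 when siYAP replicate 1 or 3 of A431 was left out and 2 when siYAP replicate 1 or 3 of HaCAT was. HIST2H2BE lost its call whichever siYAP library was left out (adjusted p = 0.0522 to 0.0853). HIST1H3B and HIST1H1D kept theirs only without siYAP replicate 2 of HaCAT, and HIST1H2AH only without siYAP replicate 2 of A431. HIST1H3J lost its call without siYAP replicate 1 or 3 of A431. HIST1H3B was not called by DESeq2 either (adjusted p = 0.0595).

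HIST1H3G was the member that fell in each line on its own. In A431 it was at 31.8 CPM in siCTRL, 10.6, 14.6 and 15.03 CPM in siYAP, 75.2 CPM with the empty vector and 62.1, 92.4 and 94.3 CPM with YAP5SA. In HaCAT it was at 6.83 CPM in siCTRL, 2.67, 3.60 and 2.25 CPM in siYAP, 63.8 CPM with the empty vector and 46.5, 49.3 and 52.2 CPM with YAP5SA. Its siCTRL library stood above every siYAP library of the same line. It fell by 1.25 on the log2 scale in A431 (SE 0.25, adjusted p = 0.0135), by 1.28 in HaCAT (SE 0.30, adjusted p = 0.024) and by 1.27 over both lines (SE 0.20, adjusted p = 0.00142, to 0.415 times the control). Its hairpin, printed above, has the TTTA loop that it shares with HIST1H2BD.

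HIST1H3J encodes the same core histone. In A431 it was at 22.3 CPM in siCTRL and at 7.08, 8.55 and 7.74 CPM in siYAP, and in HaCAT at 3.11 CPM in siCTRL and at 2.09, 1.41 and 0.661 CPM in siYAP. Over both lines it fell by 1.35 on the log2 scale (SE 0.36, adjusted p = 0.0286), the largest change of a called member, while in A431 alone its log2 fold change was −1.52 (SE 0.42) with an adjusted p of 0.0552. HIST1H3B fell by 1.08 over both lines (SE 0.33, adjusted p = 0.0475), from 38.4 CPM to 13.9, 21.5 and 21.7 CPM in A431 and from 16.9 CPM to 5.81, 12.9 and 4.79 CPM in HaCAT. In each line the siCTRL library was above all siYAP libraries for both genes.

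The other 3 members were an H2A gene, a linker histone and an H2B gene. HIST1H2AH was at 11.6 CPM in siCTRL and 4.98, 9.34 and 8.09 CPM in siYAP of A431, and at 3.55 CPM against 1.12, 1.36 and 0.859 CPM in HaCAT, and it fell by 1.17 on the log2 scale (SE 0.35, adjusted p = 0.0423). HIST1H1D, a linker histone, was at 126 CPM against 67.7, 82.8 and 81.0 CPM in A431 and at 26.8 CPM against 16.4, 19.6 and 15.3 CPM in HaCAT, and it fell by 0.68 (SE 0.20, adjusted p = 0.0433). HIST2H2BE was at 89.8 CPM against 43.0, 63.7 and 63.1 CPM in A431 and at 49.6 CPM against 38.4, 36.1 and 31.4 CPM in HaCAT, and it fell by 0.58 (SE 0.18, adjusted p = 0.0488). All 3 had their siCTRL library above every siYAP library in both lines.

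In A431 alone 3 of the 65 members fell, near the share of 3.78% of all tested genes called lower. Of the members 0 rose, where 266 of the 14673 tested genes were called higher. Beside HIST1H3G the members that fell were HIST2H2AC, an H2A gene, and HIST1H2BD. HIST2H2AC was at 53.3 CPM in siCTRL and 20.6, 31.9 and 28.5 CPM in siYAP and fell by 0.99 on the log2 scale (SE 0.23, adjusted p = 0.0279). HIST1H2BD was at 59.6 CPM against 28.98, 37.37 and 32.2 CPM and fell by 0.86 (SE 0.21, adjusted p = 0.0335). Neither gene's siYAP libraries reached its control, but both calls were lost without siYAP replicate 1 or without siYAP replicate 3, when the count was 1. The log2 fold change was below 0 for 62 of the 65 members, with a median of −0.76 over the members and 0.03 over all tested genes, and 25 members had an unadjusted p under 0.05.

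The siCTRL library of A431 was above all 3 siYAP libraries for 60 of the 65 members, against 34.9% of all tested genes, and the exceptions were HIST1H4I, HIST1H4K, HIST2H2BC, HIST2H3D and HIST3H2A. The control here is 1 library, and siYAP replicate 1 had the lowest value of its triplicate for 64 members. That replicate is also the most deeply sequenced library, and the part of depth in the result was not tested.

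In HaCAT 1 member fell, HIST1H3G, where 3.3% of all tested genes were called lower. That call was lost without siYAP replicate 1 (adjusted p = 0.0632) or replicate 3 (adjusted p = 0.0702), and 3 members were called without replicate 2. The log2 fold change was below 0 for 47 members, with a median of −0.32 over the members and 0.03 over all tested genes. The siCTRL library stood above all 3 siYAP libraries for 33 members, against 33.4% of all tested genes. HIST1H1C, HIST1H2BD and HIST1H2BK were among the members whose siCTRL library lay below all 3 siYAP libraries, with 182 CPM against 203, 195 and 189.7 CPM for HIST1H1C, 88.4 CPM against 106, 119.6 and 105 CPM for HIST1H2BD and 88.4 CPM against 96.9, 112 and 90.1 CPM for HIST1H2BK. None of the 3 was called.

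By class the median log2 fold change over both lines was −0.60 for H1, −0.57 for H2A, −0.54 for H2B, −0.60 for H3 and −0.40 for H4. In the test of the difference between the lines edgeR called 0 members, where 0.17% of all tested genes were called in either direction. HIST1H2BD, HIST1H3E, HIST1H4D and HIST2H2AC had an unadjusted p under 0.05 there, and DESeq2 called 2 members. In edgeR's test no member thus had a siYAP change that differed between A431 and HaCAT past the threshold.

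YAP5SA was compared with the empty vector to ask whether active YAP raises the histone genes. EdgeR called 0 of the 65 members in A431, in HaCAT and over both lines. The background of genes called in either direction was 0% in A431, 13.6% in HaCAT and 2.04% over both lines. In A431 no member had an unadjusted p under 0.05 and DESeq2 called 0. In HaCAT and over both lines 1 member did, HIST2H2BE, and DESeq2 called 1 member in HaCAT and 0 over both lines. Without YAP5SA replicate 1 of A431 1 member was called over both lines. The medians of the log2 fold change were 0.14 in A431 and 0.15 in HaCAT, beside 0.02 and 0.01 over all tested genes.

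HIST2H2BE was at 93.4 CPM with the empty vector and at 155, 138 and 162 CPM with YAP5SA in HaCAT, a log2 fold change of 0.70 (SE 0.27, adjusted p = 0.0917). In A431 it was at 238 CPM against 190.3, 307 and 295 CPM, so that the empty vector library lay among the YAP5SA libraries. HIST1H1C was at 491 CPM with the empty vector and 331, 527 and 521 CPM with YAP5SA in A431, and at 359 CPM against 294, 303 and 319.6 CPM in HaCAT.

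For most members the empty vector library was not separated from YAP5SA. In A431 it lay between the lowest and the highest YAP5SA library for 62 members, below all 3 for 0, where 28.9% of all genes had that pattern, and above all 3 for 3, where 24.5% had. Replicate 1 of YAP5SA was above the empty vector for 1 member, replicate 2 for 61 and replicate 3 for 58. In HaCAT the empty vector library lay within the triplicate for 34 members, below it for 18 (32.1% of all genes) and above it for 13 (33.9%). Replicate 1 of YAP5SA in A431 also had the least YAP1 RNA of its triplicate, and its part in the result was not tested.

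Replicate 3 of YAP5SA in HaCAT stood apart for a particular set of members. HIST1H2AH, HIST1H2BE, HIST1H3D, HIST1H4I, HIST1H4J, HIST1H4K, HIST2H2AA3 and its copy, HIST2H3A and its copy, HIST3H2A and HIST4H4 were more than 1.5 times as high in it as in the empty vector library and in replicates 1 and 2. HIST2H2AA3 was at 45.9 CPM with the empty vector and at 69.6, 71.5 and 144 CPM with YAP5SA. HIST2H3A was at 10.2 CPM against 20.2, 19.1 and 49.2 CPM. HIST3H2A had 8 counts with the empty vector and 32, 11 and 149 counts with YAP5SA.

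The coding sequences of the tested members had a median GC content of 60.8%, from 53.2 to 67.7%. Those of the 12 members ran from 60.4% in HIST1H2BE, 60.9% in HIST4H4, 61.8% in HIST1H2AH and 62.3% in HIST1H3D to 67.7% in HIST3H2A, and the other 8 were above 63%. The 13 members with at least 63% GC had in HaCAT a median ratio to the empty vector of 1.52 in replicate 1, 1.46 in replicate 2 and 3.13 in replicate 3, where it ranged from 1.41 to 14.9, and the 51 members below 63% had medians of 0.825, 0.931 and 1.3. In A431 the medians were 0.595, 1.27 and 1.08 for the GC-rich members and 0.688, 1.37 and 1.3 for the others. The GC limit was set after the values were seen, and the part of GC content in the YAP5SA values was not tested. The log2 fold change of HIST3H2A in HaCAT was 2.68 with an SE of 1.38 (adjusted p = 0.199), and that of HIST2H3D 1.80 with an SE of 0.89 (adjusted p = 0.181).

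**Figure D3:**
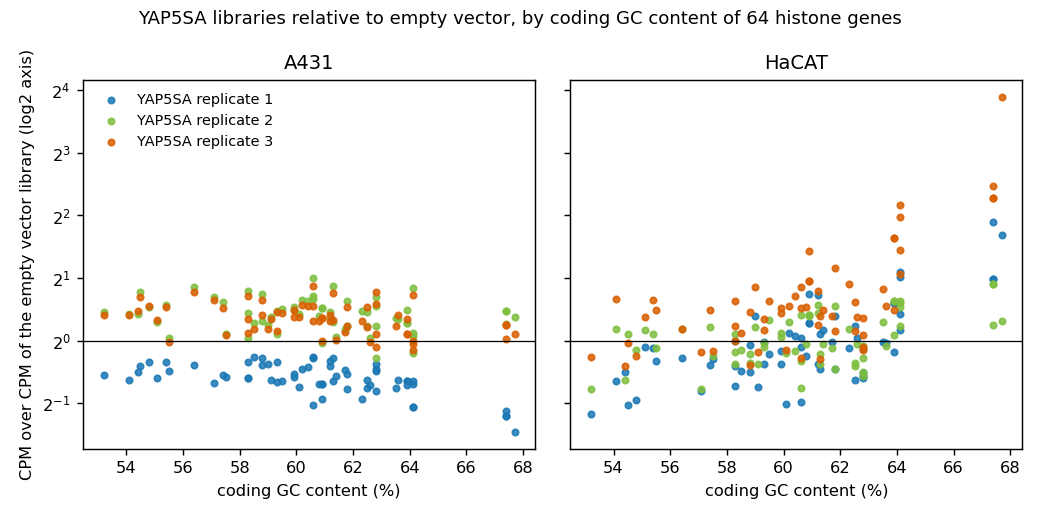
Each point is 1 histone gene, with the GC content of its coding sequence in percent on the x axis and the CPM of a YAP5SA library divided by the CPM of the empty vector library of the same line on a log2 y axis, in A431 and in HaCAT and with 1 colour per replicate. In HaCAT the GC-rich members of replicate 3 reach a ratio of 14.9, and in A431 replicate 1 lies mostly below 1.

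Whether the YAP5SA change differed between the lines was tested as well, and 0 members were called by edgeR, 0 had an unadjusted p under 0.05 and 0 were called by DESeq2, where 0.0886% of all genes were called. Without YAP5SA replicate 1 of A431 the count was 2.

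The siRNA and vector libraries were next compared at the 2 ends of YAP activity, YAP5SA against siYAP, where both groups have 3 libraries. In A431 63 of the 65 members rose and 0 fell, where 20% of all tested genes were called higher. In HaCAT 59 rose, where 31.5% were called higher, and 1 fell, where 28.5% were called lower. The median log2 fold change was 2.38 in A431 and 2.93 in HaCAT, beside −0.03 and −0.06 over all tested genes. The treatment arm differs between these groups together with YAP, as stated above.

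Some marker lists moved with the same split. Differentiated keratinocyte markers (KRT1, KRT10, IVL, LOR and FLG) summed to 550 to 813 CPM in the 4 siRNA libraries of HaCAT and to 378 to 439 CPM in the 4 vector libraries, and to 20 to 29.6 CPM and 25.7 to 31.7 CPM in A431. IVL was at 461 to 526 CPM in the siRNA libraries of HaCAT and at 25.4 to 175 CPM in the vector libraries. The other markers of that list did not share this split in HaCAT. FLG was at 40.3 to 221 CPM in the siRNA and 108 to 363 CPM in the vector libraries. KRT10 and KRT1 were highest with the empty vector (149 and 8.22 CPM) and lower with YAP5SA than in the siRNA libraries. LOR was at no more than 0.102 CPM. The 3 endothelial markers summed to 16 to 59.2 CPM and 1.18 to 2.38 CPM in HaCAT and to 18.3 to 33.8 CPM and 3.88 to 5.92 CPM in A431, with CDH5 highest in the siRNA libraries, and the 7 fibroblast markers to 21.5 to 27.9 CPM and 0.669 to 1.9 CPM in HaCAT and to 10.2 to 14.8 CPM and 2.45 to 5.46 CPM in A431, with LUM highest in the siRNA libraries of A431 and DCN in those of HaCAT. The keratinocyte markers summed to 3500 to 4720 CPM and 5890 to 8130 CPM in HaCAT and to 3820 to 4640 CPM and 4870 to 5990 CPM in A431, in the direction of the histone genes. Melanocyte markers, at 33.8 to 118 CPM, and leukocyte markers, at no more than 3.65 CPM, overlapped between the siRNA and vector libraries of each line, and TYR had no count in any library. The part of other cells or of differentiation in the histone values was not tested.

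**Figure D4:**
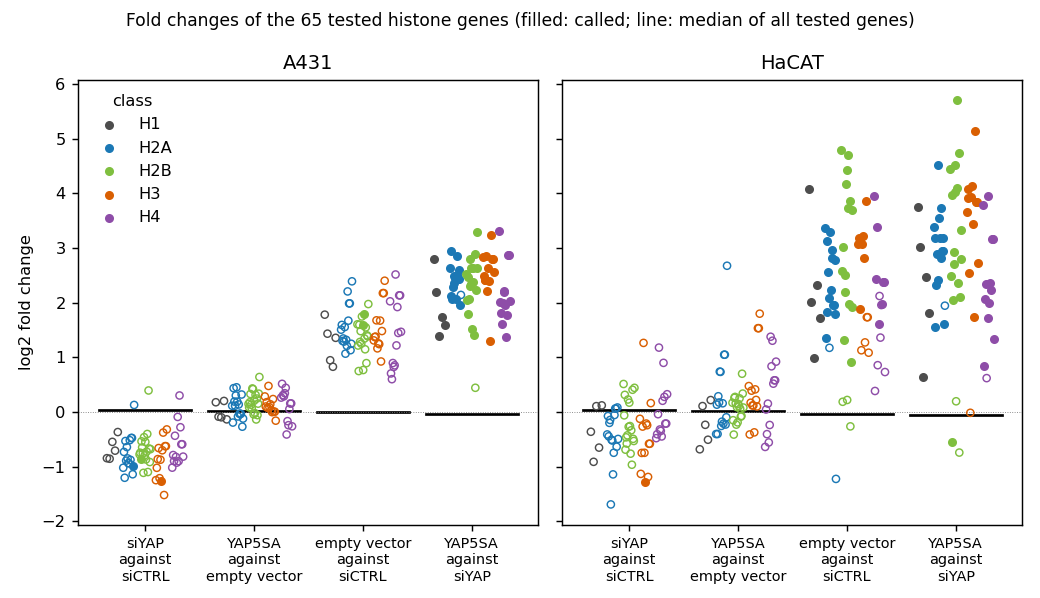
Points give the log2 fold change of the 65 tested histone genes in siYAP against siCTRL, YAP5SA against empty vector, YAP5SA against siYAP and empty vector against siCTRL, in A431 and in HaCAT, with called members filled and a line at the median of all tested genes. The members lie around that line for YAP5SA against empty vector, mostly below it for siYAP, and nearly all above it in the comparisons across the siRNA and vector libraries.

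In A431 members of every class rose. All 5 H1 members, 15 of 16 H2A, 17 of 18 H2B, all 13 H3 and all 13 H4 members rose, with median log2 fold changes of 1.74, 2.43, 2.36, 2.56 and 2.01. The 6 largest were HIST1H4A (3.31, SE 0.43, adjusted p = 0.000105), HIST3H2BB (3.30), HIST1H3J (3.24), HIST1H2AD (2.94), HIST1H2BO (2.89) and HIST2H4A with its copy (2.88, SE 0.33, adjusted p = 4.23e-05). HIST2H4A was at 14.2, 32.2 and 28.3 CPM in siYAP and at 102, 234 and 211 CPM in YAP5SA, and at 37.3 and 164 CPM in the 2 controls. HIST1H1C, the highest member, rose by 1.40 (SE 0.16, adjusted p = 3.2e-05). HIST2H2BC and HIST3H2A were not called. Their mean levels over the 16 libraries, 0.776 and 1.63 CPM, were below the level that a call requires, so neither could be called in any comparison.

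In HaCAT the members spread further apart. All 5 H1 members, 15 of 16 H2A, 15 of 18 H2B, 12 of 13 H3 and 12 of 13 H4 members rose, with median log2 fold changes of 2.48, 2.94, 2.87, 3.85 and 2.23. The largest were HIST1H2BM (5.71, SE 0.42, adjusted p = 8.99e-08), HIST1H3J (5.15, SE 0.40, adjusted p = 1.42e-07), HIST1H2BO (4.74), HIST1H2BJ (4.52), HIST1H2AH (4.52) and HIST1H2BB (4.45). HIST1H2BM was at 0.620, 2.14 and 0.628 CPM in siYAP and at 43.3, 50.8 and 73.3 CPM in YAP5SA, a 52.4-fold rise. HIST1H2BJ was at 4.53, 8.99 and 6.48 CPM and at 131, 152 and 172 CPM, a 22.9-fold rise (SE 0.24 on the log2 scale, adjusted p = 6.96e-09). The groups did not overlap for either gene, and their controls sat beside them, at 1.80 and 46.9 CPM for HIST1H2BM and at 7.98 and 173 CPM for HIST1H2BJ.

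Among the linker histones of HaCAT the rise was uneven. HIST1H1B was at 13.7, 25.4 and 13.1 CPM in siYAP and at 129, 127 and 167 CPM in YAP5SA (log2 fold change 3.03, SE 0.31). HIST1H1E was at 65.6, 62.3 and 57.2 CPM and at 210.2, 179.8 and 262 CPM (1.82, SE 0.18). HIST1H1C was at 203, 195 and 189.7 CPM and at 294, 303 and 319.6 CPM, the smallest rise of the called members (0.64, SE 0.15, adjusted p = 0.00223).

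HIST1H2BD was the member that fell. In HaCAT it was at 88.4 CPM in siCTRL, 106, 119.6 and 105 CPM in siYAP, 101 CPM with the empty vector and 71.3, 78.8 and 76.6 CPM with YAP5SA. All YAP5SA libraries lay below all others. Against siYAP it fell by 0.54 on the log2 scale (SE 0.15, adjusted p = 0.00692), to 0.688 times. In A431 it was at 28.98, 37.37 and 32.2 CPM in siYAP and at 82.9, 125 and 133 CPM in YAP5SA, and rose by 1.79 (SE 0.16, adjusted p = 7.19e-06). The 5 members not called in HaCAT were HIST1H2BK (0.20), HIST1H3E (−0.01), HIST1H4E (0.62), HIST2H2BC (−0.74) and HIST3H2A (1.95). HIST2H2BC and HIST3H2A were too low in mean level for a call.

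The difference between the lines in this comparison was chosen for a test after the data were seen. It was called for 19 of the 65 members, where 40.2% of all tested genes were called in either direction, with 13 members higher in HaCAT and 6 lower. With a replicate block 30 members were called, 24 higher and 6 lower. The YAP5SA libraries of the same number in the 2 lines deviated together (r = 0.35, 0.14 and 0.13). HIST1H2BM (3.33, SE 0.51, adjusted p = 0.00021) and HIST1H2BJ (2.18, SE 0.30, adjusted p = 8.03e-05) had the larger rise in HaCAT, and HIST1H2BD (−2.33, SE 0.22, adjusted p = 5.17e-06) and HIST1H3E (−2.87, SE 0.51, adjusted p = 0.00062) the smaller. HIST1H3E was at 3.49, 6.31 and 6.04 CPM in siYAP and 17.4, 49.7 and 46.2 CPM in YAP5SA of A431, and at 2.13, 2.04 and 2.51 CPM and 2.20, 1.75 and 2.68 CPM in HaCAT. In HaCAT its groups overlapped.

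**Figure D5:**
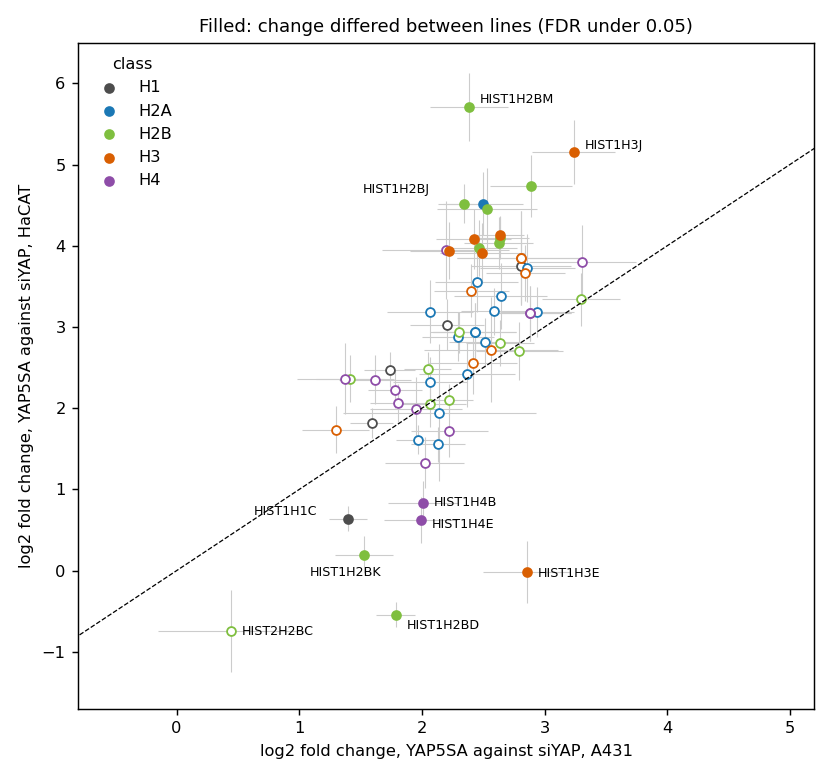
Each point is 1 of the 65 tested histone genes, with the log2 fold change of YAP5SA against siYAP in A431 on the x axis and in HaCAT on the y axis, bars of 1 SE, and filled points where the difference between the lines was called. HIST1H2BM lies farthest above the dashed line of equal change, and HIST1H3E and HIST1H2BD farthest below it.

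The 2 controls were set against each other to see whether the vector libraries differed from the siRNA libraries where neither treatment was aimed at YAP. This comparison was also chosen after the data were seen and has 1 library on each side in each line. YAP1 RNA itself was not equal in the 2 controls. It was at 94.3 CPM in siCTRL and 124 CPM with the empty vector in A431, and at 254 and 423 CPM in HaCAT. Its part in the histone values was not tested. Over both lines 55 members were higher with the empty vector than with siCTRL and 0 lower, where 16.5% of all tested genes were called higher. In HaCAT 49 were higher (21.9% of all genes) and 0 lower. In A431 2 were higher (0.729% of all genes), HIST1H2BL (log2 fold change 1.79, SE 0.39, adjusted p = 0.0485) and HIST1H2BJ (1.59, SE 0.35, adjusted p = 0.0497), and 51 members had an unadjusted p under 0.05. The median log2 fold change was 1.39 in A431 and 2.20 in HaCAT, and it was above 0 for all 65 members in A431 and for 63 in HaCAT.

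HIST1H2BJ passed in each line, from 47.7 CPM in siCTRL to 144 CPM with the empty vector in A431, and from 7.98 to 173 CPM in HaCAT, 21.7-fold (log2 fold change 4.44, SE 0.41, adjusted p = 7.81e-06). The other large changes in HaCAT were those of HIST1H2BB (4.80, SE 0.97, adjusted p = 0.00171), HIST1H2BM (4.70, SE 0.69, adjusted p = 0.000207), HIST1H2BI (4.17), HIST1H1A (4.08) and HIST1H4A (3.96). By class 5 of 5 H1, 14 of 16 H2A, 15 of 18 H2B, 8 of 13 H3 and 7 of 13 H4 members were called in HaCAT.

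Taking all libraries, all 4 vector libraries stood above all 4 siRNA libraries for 64 members in A431, where 15.2% of all genes had that pattern, and for 60 in HaCAT, where 26.7% had it. The exception in A431 was the pseudogene HIST2H2BC, and those in HaCAT were HIST1H2BD, HIST1H2BK, HIST1H3E, HIST2H2BC and HIST3H2A. The members with an annotated poly(A) form had a median log2 fold change of YAP5SA against siYAP of 2.37 in A431 and 2.75 in HaCAT, and those without one 2.38 and 2.94. RNAs without a tail moved in HaCAT too. Of the 15 tested 7 were higher and 4 lower with the empty vector than with siCTRL, among them RNU12 (5.96) and RNU6ATAC (5.83). Both of these started near the floor, in a comparison of 1 library with 1. RNU12 was at 0.164 CPM in siCTRL and 10.5 CPM with the empty vector, and RNU6ATAC at 0.109 and 6.43 CPM. In that siCTRL library 3 counts are 0.164 CPM. Of all 14673 tested genes 3207 were called higher there and 2582 lower. The part of the RNAs without a tail in the histone values was not tested.

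When the change from empty vector to YAP5SA was set against that from siCTRL to siYAP, edgeR called 0 members in A431, where 1.53% of all genes were called, 16 members had an unadjusted p under 0.05 and DESeq2 called 3. The median difference was 0.84 on the log2 scale, and 15 members were called without YAP5SA replicate 1 of A431. In HaCAT 1 member was called, HIST1H2AH (2.43, SE 0.71, adjusted p = 0.0488), where 9% of all genes were called. The call was lost without any 1 of the 3 siYAP replicates of HaCAT (adjusted p = 0.0821, 0.0625 and 0.0859) and without YAP5SA replicate 3 of HaCAT (adjusted p = 0.0782). HIST1H2AH was at 15.1 CPM with the empty vector and 19.8, 22.2 and 33.6 CPM with YAP5SA in HaCAT, and is 1 of the members that stood apart in replicate 3.

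The lines differed from each other in their histone genes. Over the 4 conditions 51 members were lower in HaCAT than in A431, where 33.1% of all tested genes were called lower, and 3 were higher, where 27.5% were called higher. The median log2 difference was −0.92, beside −0.06 over all genes. H3 genes were lowest, with a median of −1.36 and 12 of 13 called lower, against −0.72 for H1 (5 of 5), −0.91 for H2A (14 of 16), −0.99 for H2B (13 of 18) and −0.57 for H4 (7 of 13).

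The members that were lower by most were HIST1H3E (−3.19, SE 0.28, adjusted p = 3.52e-07), HIST1H2BB (−2.87), HIST2H3D (−2.81), HIST1H2BM (−2.69), HIST1H3C (−2.59) and HIST1H4K (−2.44). HIST1H2BB was at 15.2 CPM in siCTRL and 46.3 CPM with the empty vector in A431, and at 0.546 and 15.3 CPM in HaCAT. The 3 members that were higher in HaCAT were HIST1H4B (0.66, SE 0.19, adjusted p = 0.00788), HIST1H2BK (0.55, SE 0.16, adjusted p = 0.00914) and HIST1H2BD (0.43, SE 0.11, adjusted p = 0.00301). HIST1H2BK was at 56.0 CPM in siCTRL and 31.5, 42.2 and 41.5 CPM in siYAP of A431, and at 88.4 CPM and 96.9, 112 and 90.1 CPM in HaCAT. With YAP5SA the lines overlapped, at 72.1, 132 and 127 CPM and at 79.8, 139.5 and 123 CPM.

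H4 genes encode 1 protein from many copies, and their mRNAs differed in level between the lines in both directions. HIST1H4E was at 49.7 CPM in siCTRL and 22.2, 31.4 and 31.0 CPM in siYAP of A431, and at 64.6 CPM and 50.8, 54.9 and 49.7 CPM in HaCAT. With YAP5SA it was at 55.3, 142 and 138 CPM in A431 and at 67.5, 68.5 and 103 CPM in HaCAT, so that its rise was smaller in HaCAT (difference −1.37, adjusted p = 0.0151). HIST1H4C was at 30.8, 35.4 and 31.5 CPM in siYAP and 72.4, 133 and 136 CPM in YAP5SA of A431, and at 24.7, 28.0 and 26.7 CPM and 76.7, 133 and 124 CPM in HaCAT. HIST1H4B was at 6.07, 9.76 and 7.59 CPM in siYAP of A431 and at 17.04, 18.27 and 19.2 CPM in that of HaCAT. With YAP5SA its lines overlapped, at 16.7, 39.5 and 37.6 CPM and at 25.95, 35.74 and 35.76 CPM.

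Histone genes are expressed in S phase, and 30 genes of DNA replication were followed beside them. Among them were PCNA, MCM2 to MCM7 of the replicative helicase, CDC6, CDT1, CDC45, GINS1 to GINS4, the primase and polymerase subunits POLA1, POLA2, PRIM1 and PRIM2, the clamp loader subunits RFC2 to RFC5, the nucleotide enzymes RRM1, RRM2, TYMS and TK1, and UNG, FEN1 and LIG1. With siYAP 19 of them fell in A431, 1 in HaCAT (PRIM1, log2 fold change −0.86) and 21 over both lines, with a median of −0.68 over both lines, and CDC45 (−1.80 in A431) and RRM2 (−1.63) were among those that fell. With YAP5SA against the empty vector edgeR called 0 of the 30 in either line, and so did DESeq2, while 2 in A431 and 3 in HaCAT had an unadjusted p under 0.05. Against siYAP all 30 rose in both lines, and with the empty vector against siCTRL 28 were higher in HaCAT and 1 in A431, TK1 (1.74). The shares of all tested genes apply to this list and those below. With siYAP 3.78% were called lower in A431, 3.3% in HaCAT and 7.68% over both lines. Between YAP5SA and siYAP 20% were called higher in A431 and 31.5% in HaCAT, where 28.5% were lower. Between the controls 0.729% were called higher in A431 and 21.9% in HaCAT.

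The summed CPM of these genes, too, was higher in every vector library than in every siRNA library of the same line. The sum of the histone genes divided by it was 1.02 in siCTRL, 1.07, 1.28 and 1.39 in siYAP, 1.92 with the empty vector and 1.34, 1.72 and 1.74 with YAP5SA in A431. In HaCAT it was 1.27 in siCTRL, 1.46, 1.5 and 1.44 in siYAP, 0.858 with the empty vector and 0.928, 0.824 and 1.02 with YAP5SA. Relative to the replication genes the histone genes were thus lower in the vector libraries than in the siRNA libraries of HaCAT, while in A431 the vector libraries lay from within the range of the siRNA libraries to above it.

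Genes that make and process histone mRNA were a further list of 32, of which 30 were tested. Over both lines 8 were lower with siYAP, SLBP (log2 fold change −0.56), NPAT (−0.43), which gathers transcription factors at histone loci, the exonuclease ERI1 (−0.60), the cap-binding protein NCBP1 (−0.89), CDK2 (−0.36), CSTF2 (−0.48), CSTF2T (−0.39) and SNRPB (−0.38), and 1 was higher, LSM11 (0.43), a subunit of the U7 particle that cuts histone pre-mRNA. In A431 alone CCNE2 (−1.55), NCBP1 (−1.11) and NPAT (−0.63) fell, and in HaCAT alone ERI1 (−0.68) and SLBP (−0.68). With YAP5SA against the empty vector CPSF1 (1.43) rose and CASP8AP2 (−0.57) and ZCCHC6 (−0.50) fell in HaCAT, and 0 were called in A431 by edgeR and by DESeq2, where 3 had an unadjusted p under 0.05. Against siYAP 17 rose and 2 fell in A431, and 19 rose and 3 fell in HaCAT, CCNE1 by most (4.47).

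SLBP binds the hairpin printed above. In A431 it was at 70.4 CPM in siCTRL, 50.8, 54.1 and 51.2 CPM in siYAP, 73.8 CPM with the empty vector and 91.5, 95.8 and 97.9 CPM with YAP5SA. In HaCAT it was at 32.1 CPM in siCTRL, 22.8, 19.6 and 17.8 CPM in siYAP, 103 CPM with the empty vector and 91.8, 117 and 111 CPM with YAP5SA. The siYAP libraries were below every other library of their line. Between YAP5SA and siYAP SLBP rose by 0.87 on the log2 scale in A431 (SE 0.11, adjusted p = 8.86e-05) and by 2.41 in HaCAT (SE 0.12, adjusted p = 4.22e-09), and between the controls by 1.68 in HaCAT (SE 0.20, adjusted p = 4.25e-05), with a log2 fold change of 0.07 in A431 that was not called.

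NPAT did not follow the histone genes across the vector libraries. In A431 it was at 48.6 CPM in siCTRL, 31.8, 30.6 and 32.1 CPM in siYAP, 38.8 CPM with the empty vector and 43.4, 40.3 and 44.2 CPM with YAP5SA. In HaCAT it was at 101 CPM in siCTRL, 84.5, 84.8 and 88.1 CPM in siYAP, 76.1 CPM with the empty vector and 73.1, 81.0 and 79.2 CPM with YAP5SA. In both lines the siCTRL library was the highest, and between the controls of HaCAT NPAT fell by 0.41 (adjusted p = 0.0343). It was higher in HaCAT than in A431 by 1.08 on the log2 scale, opposite to most histone genes.

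Replication-independent histone variants, which are also made outside S phase, were a list of 18 with 11 tested. With siYAP H2AFX (−1.06) fell in A431, and CENPA (−1.29), the centromeric H3, fell in HaCAT. Between YAP5SA and siYAP 7 were higher with YAP5SA in A431, and in HaCAT 7 were higher, CENPA (4.11), H2AFX (2.76) and H2AFZ (1.80) among them, and H2AFJ (−1.01) was lower. With YAP5SA against the empty vector H2AFV (−0.79) fell in HaCAT.

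Histone chaperones and assembly factors were a list of 21, all tested. With siYAP 5 fell in A431, CHAF1B (−1.10), MMS22L (−1.06), NASP (−1.05), RBBP4 (−0.78) and SUPT16H (−0.63), while edgeR called 0 in HaCAT, where 4 had an unadjusted p under 0.05 and DESeq2 called 1. Between YAP5SA and siYAP 14 were higher with YAP5SA and 1 lower in A431, and 17 were higher and 1 lower in HaCAT, with ASF1B (4.53) and HJURP (4.30) changed by most. With YAP5SA against the empty vector IPO4 (1.02), which imports H3 and H4, rose in HaCAT, and ATRX (−0.48) and NAP1L4 (−0.37) fell.

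RNAs without a tail were a list of 41, of which 24 are in the table and 15 were tested. They summed to 5430 CPM in siCTRL, 5162, 7152 and 7200 CPM in siYAP, 8741 CPM with the empty vector and 8311, 6156 and 6518 CPM with YAP5SA in A431. In HaCAT they summed to 3180 CPM, to 3871, 4614 and 5637 CPM, to 3870 CPM and to 5508, 4608 and 5201 CPM. Unlike the histone sums, these overlapped between siRNA and vector libraries in both lines. RMRP and RPPH1 made up much of them, with 850.4 and 1679 CPM in siCTRL of HaCAT. Single RNAs did separate in HaCAT, in both directions. SNORA73B was at 178.9 to 250.6 CPM in the siRNA and 366.5 to 710.8 CPM in the vector libraries, and SCARNA7 at 176.9 to 206 and 75.89 to 121.5 CPM. Between YAP5SA and siYAP 6 of the 15 were higher and 5 lower in HaCAT. With siYAP edgeR called 0 in either line, 1 in A431 and 3 in HaCAT had an unadjusted p under 0.05, and DESeq2 called 0 and 2.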

How the data were processed

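The authors deposited 1 table of estimated counts per gene for all 16 libraries, made with RSEM, version 1.2.11 per the submitters' processing notes, from paired reads against hg19, and they tested genes with edgeR. The paper speaks of mRNA, but how it was selected, and whether the counting used strand, are not given in the sources used here, so reads from overlapping genes on opposite strands could be mixed. Groups were taken from the sample labels, and no column was left out. Columns held 18115624 to 46791673 assigned read pairs. No row was without a gene name.

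The estimated counts were rounded to whole numbers, 14673 genes averaging more than 10 counts over the libraries entered the tests, and libraries were scaled by TMM (factors 0.9135 to 1.074) in edgeR 4.0.16 with limma 3.58.1 under R 4.3.3. All 8 groups were fitted together, leaving 8 residual degrees of freedom, and contrasts were tested with edgeR's quasi-likelihood F, using Benjamini-Hochberg adjustment across the tested genes and a prior count of 0.125. Standard errors were obtained as the absolute log2 fold change over the root of F. A gene was called at an adjusted p under 0.05 and a mean log2 CPM above 1. Each control group has 1 library, which was assumed to vary like the triplicates, and an exact permutation test of 3 libraries against 1 could not go below p = 0.25. The script was tested on simulated data of the same design.

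The histone genes and the gene lists around them were chosen with earlier results of these data known. Named members were the 12 with the highest mean CPM, up to 6 called members with the largest change in each direction of a comparison, and the identical copies, and members named for a share, a range or a GC content were chosen after their values were seen. Companion genes were listed with their values where they were called against their own control, and otherwise counted, and some are not reported here by name. The comparisons between the 2 controls, between the 2 treatment effects, and between the lines in YAP5SA against siYAP were added after the data were seen. Replicate numbers were checked for pairing by the correlation of deviations from the group means. Every r was above 0.1 only between the YAP5SA groups of the 2 lines (0.35, 0.14 and 0.13), and blocked counts are printed for the comparison between lines that they change. Alternatives were DESeq2 1.42.0, other size factors and count filters, each line alone, both controls pooled, a replicate block, summed copies, and leaving out each treated library. Sequences came from GENCODE 29 and RefSeq on GRCh38, and no coordinate of the hg19 counts was used. Summaries and plots were made in Python 3.11.15 with numpy 2.4.6, pandas 2.3.3 and matplotlib 3.10.9.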

Additional observations from a re-analysis of the deposited data

Results flagged for a closer look

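The response of 19 of the 65 tested histone genes differed between the lines in YAP5SA against siYAP, by the test of the difference itself (edgeR quasi-likelihood, Benjamini-Hochberg adjustment, difference as HaCAT minus A431 on the log2 scale). Of all tested genes 40.2% were called in either direction, a larger share than among the histone genes. In 13 of the 19 histone genes the rise was larger in HaCAT. These were HIST1H2BM (3.33), HIST1H2BJ (2.18), HIST1H2AH (2.02), HIST1H2BB (1.92), HIST1H3J (1.91), HIST1H2BO (1.84), HIST1H3F (1.72), HIST1H3C (1.67), HIST1H2BE (1.51), HIST1H3G (1.5), HIST1H2BL (1.46), HIST1H3B (1.42) and HIST1H2BI (1.41), all of them H2A, H2B or H3 genes. In 6 it was smaller or of the opposite direction, HIST1H3E (−2.87), HIST1H2BD (−2.33), HIST1H4E (−1.37), HIST1H2BK (−1.33), HIST1H4B (−1.17) and HIST1H1C (−0.756). The adjusted p lay between 5.17e-06 for HIST1H2BD and 0.0291 for HIST1H3B. With each of the 12 treated libraries left out in turn, HIST1H3B lost the call in 6 cases (adjusted p up to 0.0777), HIST1H2BB in 5 (up to 0.0883) and HIST1H4B in 5 (up to 0.0734), and the other 16 kept it. HIST1H3B lost it without siYAP replicates 2 or 3 or YAP5SA replicate 1 of A431, or siYAP replicates 1 or 3 or YAP5SA replicate 3 of HaCAT. HIST1H2BB lost it without siYAP replicates 2 or 3 of A431, or siYAP replicates 1 or 3 or YAP5SA replicate 3 of HaCAT. HIST1H4B lost it without siYAP replicates 1 or 3 or YAP5SA replicates 2 or 3 of A431, or siYAP replicate 3 of HaCAT. The treatment arm and YAP cannot be told apart in this comparison.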

How the results depend on the processing

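Log2 fold changes were recomputed for up to 6 called members with the largest change in each direction of a comparison. None of these reversed under any alternative. They were picked for large called changes, so a reversal was unlikely from the start. Other members named in the text were not recomputed in this way. Of the values recomputed for single members, 776 kept their call and 48 lost it with the same direction. The number of members called did change. For siYAP in A431 it was 3, against 6 with DESeq2, 14 with a replicate block and 1 to 4 with a library left out. For siYAP in HaCAT it was 1, against 2 with DESeq2, 3 with the block (1 of them higher), 35 with siCTRL and empty vector taken as 2 controls and 0 to 3 with a library left out. For siYAP over both lines it was 6, against 12, 17, 57 and 1 to 7 in the same order. With the 2 controls pooled HIST1H3G in A431 had a log2 fold change of −2.001 and an adjusted p of 0.121. For YAP5SA against empty vector it was 0, with 0 to 0 in each line when a library was left out, 0 to 1 over both lines, 1 with DESeq2 in HaCAT and 2 with the block in HaCAT. For the difference of the siYAP effect it was 0, against 2 with DESeq2 and 0 to 0 with a library left out, and for that of the YAP5SA effect 0 to 2. YAP5SA against siYAP ranged over 62 to 63 members in A431 and 60 to 60 in HaCAT, HaCAT against A431 over 49 to 57 and the difference between lines in YAP5SA against siYAP over 16 to 24, with 30 under the block. For empty vector against siCTRL in A431 it was 2, against 23 with DESeq2, 4 with RLE size factors, 5 without a count filter, 6 where each library had to exceed 10 counts, 1 with each line fitted alone and 17 with the block. For the YAP5SA effect minus the siYAP effect it was 0 in A431, against 3 with DESeq2, 1 with the block and 0 to 15 with a library left out, and 1 in HaCAT, against 2 with DESeq2, where each library had to exceed 10 counts, with each line alone and with the block, and 0 to 1. The summed CPM of the empty vector library was 5662 without TMM and 5551 with RLE in A431, and 3593 and 3976 in HaCAT, where 5603 and 3933 are reported. The cause of these changes was not tested. Libraries with the same replicate number deviated together in 6 of 18 pairs (r above 0.1, from −0.028 to 0.35), among them all 3 pairs of YAP5SA in A431 with YAP5SA in HaCAT (0.35, 0.14 and 0.13). For the comparisons between those groups the block changed the count of the difference between lines in YAP5SA against siYAP by more than 1.5 times, and left the difference of the YAP5SA effect at 0 and HaCAT against A431 at 57 members against 54. No other pair of groups had every r above 0.1, and calls that change under the block there are not read as a weaker or stronger change.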
